A study of Danio rerio with 17 samples.

Results

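The regions described here are stretches of open chromatin that carried an ATAC-seq peak in both wild type libraries of the prdm3 set and in neither prdm3 mutant library. They number 685 of 21106 regions obtained by merging the peaks of the 4 libraries of that set wherever they overlapped by 1 bp or more. They were chosen by the presence or absence of peaks in those 4 libraries, so the loss itself, the strength and the width of the regions are given as a description with no test. ATAC-seq tags DNA that a transposase can reach, and a peak marks a stretch where such tags pile up. The material was cranial neural crest of zebrafish embryos at 48 hours post fertilization, sorted by its sox10:GFP reporter after pooled embryos had been dissociated. The groups used were prdm3-/- (2 libraries) with wild type cells of the prdm3 set (2 libraries), and prdm16-/- (2 libraries) with wild type cells of the prdm16 set (2 libraries). The mutant alleles are not named in the labels, all 4 groups carry the same reporter, and nothing says whether 2 libraries of a group came from separate pools. The series also holds 9 RNA libraries, which are not analysed here.

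Prdm3, also called Mecom or Evi1, and Prdm16 are closely related zinc finger proteins with a PR domain, a relative of the SET domain of histone methyltransferases. Both are known for binding DNA through zinc finger clusters, for recruiting corepressors and for roles in histone H3 lysine 9 methylation and heterochromatin. Cranial neural crest cells migrate into the pharyngeal arches and form most of the cartilage and bone of the face. At enhancers and promoters used by a cell type, nucleosomes are displaced and the DNA becomes accessible. In a sorted bulk sample, fewer cells with an open region and less opening per cell cannot be told apart.

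The lost regions were a small share of the open chromatin, in mutants that had more peaks than their wild type partners. The prdm3 mutant libraries held 18266 and 15115 peaks, and the wild type libraries of the set held 13658 and 8187. Over the 8 libraries the number ran from 6590 to 18266. Among all merged regions of the prdm3 set, 3.25% were lost. Of the 6642 regions with a peak in both wild type libraries, 685 (10.3%) were lost and 5957 kept a peak in a mutant. Of the kept regions, 5698 had a peak in both mutants and 259 in 1 of them. In the opposite direction, 2967 regions had a peak in both mutants and in no wild type library of the set. The peak lists carry no read numbers, so the depth behind a missing peak is unknown and its part in the loss was not tested. One library stood apart from its group at these regions and at others, wild type replicate 1 of the prdm16 set, and its label could not be checked from the peak lists. The wild type shares of the prdm16 set, their difference from the mutants and the overlap of the 2 sets hold only as far as that label does, and the difference and the overlap are also given without the library. Targeted genes and markers of the sorted cells could not be looked up, since gene positions of the build were not used here.

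Most lost regions were weak peaks in the wild type libraries themselves. Strength is taken from the −log10 p that the authors' peak caller gave each peak, ranked as a percentile within its own library so that 100 is the strongest peak. In wild type replicate 1, the −log10 p of the lost regions ran from 2.57 to 4.57 with a median of 3.18, and their median percentile rank was 7.12. In wild type replicate 2 it ran from 2.67 to 4.94 with a median of 3.27, at a median rank of 19.2. The kept regions had median ranks of 74.7 and 60.7 in the same libraries. Of the 685 lost regions, 610 stood below rank 50 in both wild type libraries and 13 at or above it in both. The 259 regions that kept a peak in 1 mutant lay between these classes, with median ranks of 29.4 and 42.4. These regions lie just outside the rule, and their mutant peak was itself weak, at a median −log10 p of 3.29 in the 116 with a peak in mutant replicate 1 and 3.26 in the 143 with a peak in mutant replicate 2.

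The share of wild type regions that were lost was far lower among strong regions than among weak ones. Each region was placed by the lower of its 2 wild type ranks. Among regions with a rank of up to 5, 276 of 330 were lost, or 83.6% (95% exact Clopper-Pearson interval 79.2% to 87.5%). Between ranks 10 and 20 the share was 21.2% (17.9% to 24.7%), and between 40 and 50 it was 3.47% (2.19% to 5.21%). Above rank 50, 13 of 3494 regions were lost. Above rank 70, 0 of 2062 were lost, for which the exact interval reaches up to 0.179%. Put together, 537 of the lost regions (78.4%) came from the 1151 wild type regions with a rank of up to 20. The intervals cover counting error only, and neighbouring regions are not independent.

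**Figure D1:**
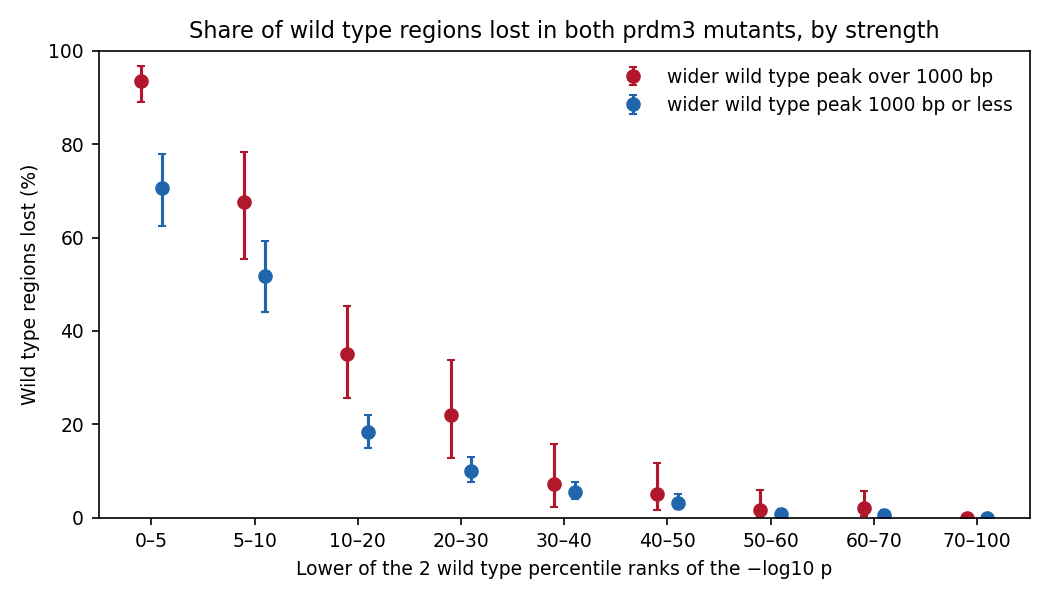
Share of regions with a peak in both wild type libraries that were lost in both prdm3 mutants (percent, vertical axis) by the lower of the 2 wild type percentile ranks (horizontal axis), with 95% exact binomial intervals. Red points are regions whose wider wild type peak exceeds 1000 bp and blue points the narrower ones. The shares run from 93.6% (red) and 70.6% (blue) at the weakest ranks to 0% above rank 70, and the red points lie above the blue ones in every class up to rank 70.

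The lost regions had shallow peaks that were wider than those of kept regions in the wild type libraries the rule had used, while the merged regions themselves were of much the same width. The merged width had a median of 925 bp in lost regions and 877 bp in kept ones, and 368 of the 685 lost regions were wider than the median kept region. Lost regions are merged from wild type peaks alone and kept regions from mutant peaks as well, so these merged widths are unlike measures. The lost widths had 25th and 75th percentiles of 635 and 1307 bp and extremes of 184 and 3716 bp, and together the lost regions covered 705 kb. The strongest peak of a lost region was 771 bp wide at the median in wild type replicate 1 and 801 bp in replicate 2. For kept regions these widths were 706 and 584 bp, and the median over all peaks of the same libraries was 581 and 604 bp. Area under the peak per bp, in the authors' own signal unit and compared only within a library, had a median of 0.436 for lost and 1.16 for kept regions in replicate 1. In replicate 2 it was 0.481 for lost and 0.842 for kept regions. The total area had nearly the same minimum everywhere, 200.09 and 200.148 in lost and 202.415 and 200.013 in kept regions (replicates 1 and 2). A shallow peak reaches that area only if it is wide, so shallowness and width are not separate traits of the lost regions. The comparison by width that follows carries the same limit. Among weak regions (rank up to 20), 257 of 355 with a wild type peak over 1000 bp were lost (72.4%), against 280 of 796 narrower ones (35.2%).

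Both wild type libraries usually showed 1 peak each, but they placed its summit less tightly than elsewhere. In 673 of the 685 lost regions each wild type library held a single peak. The 2 summits lay 124 bp apart at the median in lost regions, 39.0 bp apart in regions kept in 1 mutant, and 14.0 bp apart in regions kept in both. Among weak regions (rank up to 20) it was 164 bp at the median in the 537 lost and 70.5 bp in the 614 kept regions. Above rank 20 it was under 20 bp at the median in both the 148 lost and the 5343 kept regions. Among weak regions whose wild type peaks were at most 1000 bp wide, it was 97.5 bp in lost and 61.5 bp in kept regions. The distance thus went with strength and width, and within each of these classes its median was higher in lost than in kept regions. Strength still differed within the narrow weak group, where 70.6% of regions with a rank of up to 5 were lost and 18.3% between ranks 10 and 20. Whether distance went with loss apart from strength was not tested.

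A minority of lost regions lay within 1 kb of a mutant peak. The nearest peak of either mutant lay 20723 bp away at the median and 108 bp away at the closest, and 113 regions (16.5%) had a mutant peak within 1 kb. Beyond 10 kb were 405 regions (59.1%). No such share was taken for other positions of the genome, so whether 16.5% is low or high was not tested. The 113 near ones were narrower (median 754 bp) than the other 572 (952 bp), and stronger, with a median lower rank of 13.9 against 5.29. On the other side of the rule, every kept region had a wild type and a mutant peak that shared at least 125 bp, and none was kept through a marginal overlap under 50 bp.

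The strongest lost regions, taken by the lower of their 2 wild type ranks, were moderate peaks on 8 different chromosomes. Positions are those of the deposited peaks, build danRer11 per the submitters' processing notes, counted from 1. The first, chr16:666016-666932, had a −log10 p of 4.51 and 4.21 in the wild type libraries (ranks 68.7 and 68.2), and its nearest mutant peaks lay 102408 and 12500 bp away. In the prdm16 set it carried a peak in mutant replicate 2 (3.48) and in wild type replicate 2 (3.43). It therefore appeared in 1 library of each genotype there. The second, chr9:35871-36879, had a −log10 p of 4.44 and 4.75 in the wild type libraries of the prdm3 set. It was present in all 4 libraries of the prdm16 set, at 4.11 and 3.69 in the mutants and at 3.84 and 4.53 in wild type. Next, chr17:46503266-46503449, was the narrowest of all lost regions at 184 bp. It had 4.40 and 4.91 in the wild type libraries, with mutant peaks only 129 and 117 bp away.

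Of the next 5, all but the last recurred in the prdm16 set. The region chr3:1458854-1459457 had 4.36 and 4.69 in the prdm3-set wild type libraries and a peak in both prdm16 mutants (3.83 and 4.09) and in wild type replicate 2 (4.36). The region chr24:2750641-2751227 had 4.33 and 4.10 and appeared in all 4 prdm16-set libraries. The region chr13:19178929-19180299 (4.29 and 4.38) and the region chr4:53480600-53481749 (4.29 and 4.02) were each present in both prdm16 mutants and in wild type replicate 2. Prdm3 mutant peaks lay 117 and 108 bp from the region on chromosome 4, the closest of all lost regions, and 1210 and 1205 bp from that on chromosome 13. Last, chr12:28046890-28048133 had 4.25 and 4.02, no peak in any prdm16-set library and no mutant peak of the prdm3 set within 251904 bp. Among these 8 regions, prdm16 mutant replicates 1 and 2 held 5 and 7, and wild type replicates 1 and 2 of the prdm16 set held 2 and 6. For comparison, 45.3% of all lost regions and 98.8% of all kept regions had a peak in 1 or more prdm16-set library. At the other extreme, the widest lost regions were weak and absent from the prdm16 set. These were chr1:22037504-22041219 (3716 bp, −log10 p of 2.72 and 3.22), chr17:39040296-39043634 (3339 bp, 3.12 and 3.16) and chr10:4766269-4769409 (3141 bp, 3.06 and 3.16).

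The prdm16 set offers 4 libraries that the choice of regions did not use. There the mutant and wild type libraries overlapped in the share of lost regions they held. Prdm16 mutant replicate 1 held a peak at 205 of the 685 lost regions, or 29.9% (95% exact interval 26.5% to 33.5%). Prdm16 mutant replicate 2 held a peak at 168, or 24.5% (21.3% to 27.9%). Wild type replicate 1 of that set held a peak at only 45, or 6.57% (4.83% to 8.69%), and wild type replicate 2 at 210, or 30.7% (27.2% to 34.3%). The low library was thus a wild type one, and the other wild type library was as high as the mutants. The background, the share of all merged prdm3-set regions with a peak, was 47.6% and 28.3% in the 2 mutants and 61.8% and 29.7% in the 2 wild type libraries. Kept regions had a peak in 94.5% and 79.5% in the mutants and in 94.9% and 84.5% in wild type. By the rule they had also recurred in more prdm3-set libraries than the lost regions, so part of this gap may be built in. The 259 regions kept in 1 mutant had shares of 69.1% and 61.8% in the mutants and 45.6% and 68.7% in wild type.

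**Figure D2:**
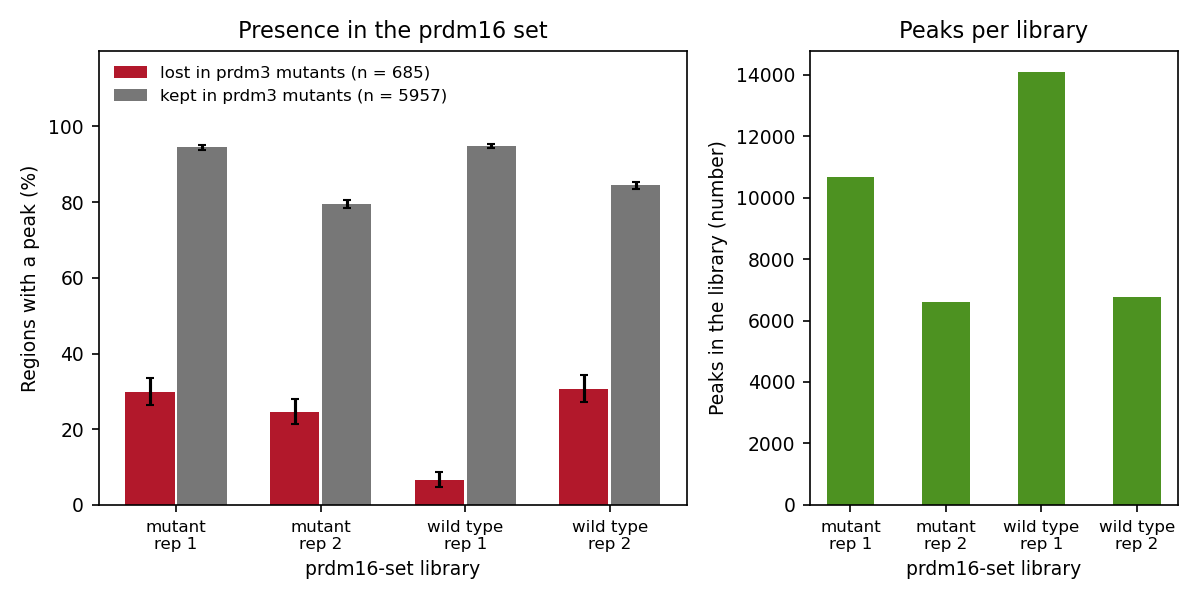
Left, share of lost (red) and kept (grey) regions that carry a peak in each library of the prdm16 set (percent), with 95% exact binomial intervals. Right, number of peaks in each of these libraries. Wild type replicate 1 has the most peaks (14074) and the smallest share of lost regions (6.57%).

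Averaged by genotype, 27.2% ± 3.82 of the lost regions had a peak in prdm16 mutants and 18.6% ± 17.0 in wild type (SD, n = 2 each). The difference, mutant minus wild type, was 8.61 percentage points, less than the spread between the 2 wild type libraries (p = 1 by a two-sided exact permutation test over the 4 libraries). With 2 libraries against 2, this exact test cannot go below p = 0.333. Without wild type replicate 1 the difference turned to -3.43 percentage points. For kept regions the means were 87.0% ± 10.6 in mutants and 89.7% ± 7.37 in wild type (SD, n = 2 each; p = 0.667 by the same exact test). Such p-values measure only the spread between these libraries, which may be technical.

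Within the prdm16 set, peak number did not order the libraries in the same way as the lost regions did. Wild type replicate 1 of the prdm16 set had 14074 peaks, the most of its set, and prdm16 mutant replicate 1 had 10682. Mutant replicate 2 and wild type replicate 2 had 6590 and 6777. In the prdm3 set the rule fixes the lost regions as absent from both mutants and present in both wild type libraries. Peak numbers of that set are therefore not compared with the lost regions. At the 2967 regions with a peak in both prdm3 mutants and in neither wild type of that set, the 2 wild type libraries of the prdm16 set changed ends. Prdm16 mutant replicates 1 and 2 held a peak at 23.7% and 1.72% of them, and wild type replicates 1 and 2 at 60.4% and 0.977%. Against the background given above (47.6% and 28.3% in the mutants, 61.8% and 29.7% in wild type), wild type replicate 1 was near its background at these regions and the other 3 libraries below theirs, while at the lost regions wild type replicate 1 was far below its background. Within the prdm16 set, the shares at the 2967 regions were higher in the 2 libraries with more peaks. The prdm3 mutants have peaks at all of the 2967 and at none of the lost regions by the rule, so no likeness to them is read here. Wild type replicate 1 of the prdm16 set held a peak at 60.4% of the 2967 regions and at 6.57% of the lost ones, against its background of 61.8%. A mislabelled library could not be told from other differences with peak lists alone, and what sets this library apart was not tested.

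Wild type replicate 1 was the low library at every level of strength. The other 3 libraries changed places, with wild type replicate 2 highest in the 2 weaker classes and mutant replicate 1 highest in the 2 stronger ones. The lost regions were divided into 4 strength classes at the 25th, 50th and 75th percentiles of their lower wild type rank. In class 1, the weakest (211 regions, ties included), 9.005% and 7.58% had a peak in prdm16 mutant replicates 1 and 2, and 1.42% and 11.4% in wild type replicates 1 and 2. In class 4, the strongest (153 regions), the shares were 59.5% and 55.6% in the mutants and 13.1% and 56.9% in wild type. The stronger lost regions were therefore mostly found again in each library of the prdm16 set other than wild type replicate 1. Lost regions were present less often than kept regions of the same class in every library, a gap that may be partly built in, as said above. In class 4, the 158 regions kept in 1 mutant had 70.3% and 64.6% in the mutants and 48.1% and 72.2% in wild type. All kept regions of that class had 95.3% and 81.8% in the mutants and 96.2% and 86.8% in wild type. In class 2, 21.7% and 16.1% of 161 lost regions had a peak in the mutants and 4.35% and 27.3% in wild type. For the 78 kept regions of that class these shares were 79.5% and 53.8% in the mutants and 70.5% and 53.8% in wild type. In wild type replicate 1 the gap between lost and kept regions was the widest of the 4 libraries in classes 2, 3 and 4. In class 1 it was the narrowest, at 1.42% of lost and 44.0% of only 25 kept regions.

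**Figure D3:**
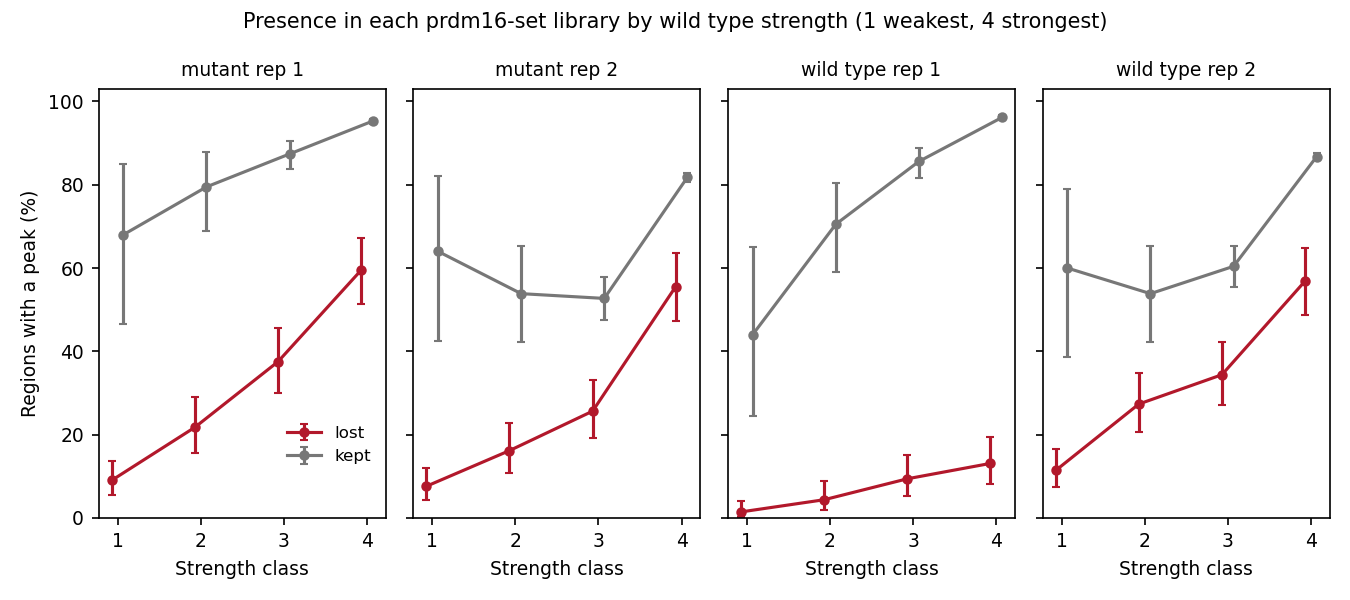
Share of lost (red) and kept (grey) regions with a peak in each prdm16-set library (percent) by class of the lower wild type rank (1 weakest, 4 strongest), with 95% exact binomial intervals. Red points in class 4 lie between 55.6% and 59.5% in 3 libraries and at 13.1% in wild type replicate 1, and kept regions of class 4 reach far higher ranks than lost ones.

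Where a lost region did carry a peak in the prdm16 set, that peak was again weak. Its median percentile rank was 15.5 and 22.3 in prdm16 mutant replicates 1 and 2, and 8.19 and 13.1 in wild type replicates 1 and 2. Kept regions had medians of 71.3 and 59.7 in the mutants and 77.1 and 58.9 in wild type. Regions kept in 1 mutant had medians of 26.2 and 25.2 in the mutants and 11.2 and 22.0 in wild type. Weak peaks in the prdm16 set were thus not particular to lost regions. Median peak widths at lost regions were 570 and 582 bp in the mutants and 568 and 630.5 bp in wild type. At kept regions they were 636 and 599 bp in the mutants and 738 and 611 bp in wild type. In 3 of these 4 libraries the peaks at lost regions were thus narrower than those at kept regions at the median, unlike in the wild type libraries of the prdm3 set. The contrast is between unlike groups of regions, since the prdm16-set widths cover only the lost regions with a peak there (45 to 210 of 685). Peaks at regions kept in 1 mutant were narrower still. Their median widths were 549 and 559.5 bp in the mutants and 534 and 596.5 bp in wild type. Lost regions with no prdm16-set peak had a median merged width of 1114 bp, against 756 bp for those in all 4 libraries.

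By pattern, 375 lost regions (54.7%) had no peak in any prdm16-set library and 29 (4.23%) had a peak in all 4. Of the 5957 kept regions, 70 (1.18%) had no peak there and 4268 (71.6%) had a peak in all 4. Lost regions with no peak were weaker and wider (median lower rank 3.72, median width 1114 bp) than lost regions with 4 (16.5 and 756 bp). A peak in both prdm16 mutants and in wild type replicate 2, but not in wild type replicate 1, was found in 68 lost regions. The mirror pattern, with wild type replicate 1 in place of replicate 2, was found in 1. These 2 patterns made up 9.93% and 0.146% of the lost regions. Among kept regions they numbered 105 (1.76%) and 249 (4.18%). A peak in 1 or both prdm16 mutants and in neither wild type was found in 91 lost regions (13.3%). The reverse, a peak in 1 or both wild types and in neither mutant, was found in 44 (6.42%). Among kept regions these patterns numbered 47 (0.789%) and 158 (2.65%). Wild type replicate 1, the low library at lost regions, enters both patterns.

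The same rule applied to the prdm16 set gave 99 lost regions among its 15219 merged regions, and 50 regions with a peak in both mutants and no wild type library (0.329%). The prdm3 and prdm16 sets share no library. Only 2 regions were lost in both sets, which is 0.292% of the prdm3 list and 2.02% of the prdm16 list. Over all merged regions, 0.651% of the prdm16 set and 3.25% of the prdm3 set were lost, and with a count of 2 nothing is read from the difference between these shares. They are the regions that were open in all 4 wild type libraries and in none of the 4 mutant libraries. One was chr6:57294988-57295305, with a −log10 p of 3.80 and 3.78 in wild type of the prdm3 set and 3.45 and 3.40 in wild type of the prdm16 set. The other was chr14:33373715-33374511, with 3.46 and 4.02 in wild type of the prdm3 set and 3.03 and 2.94 in wild type of the prdm16 set. Both were weak to moderate peaks, with the nearest prdm3 mutant peak 181142 and 22529 bp away. In the opposite direction, 9 lost regions were gained in the prdm16 mutants, 1.31% of the prdm3 list and 18.0% of the 50. The count of 2 changed most without wild type replicate 1 of the prdm16 set, where 43 of the lost regions were lost in the prdm16 set too. Without mutant replicate 1 of that set the count was 6, and without wild type replicate 2 it was 5. Leaving out a library removes a condition from the rule, so a rise in this count is built in. The lengths of the longer prdm16 lists are not given here.

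Among the 29 lost regions present in all 4 prdm16-set libraries, the 5 strongest include the regions on chromosomes 9 and 24 given above. The region chr5:130364-130991 had a −log10 p of 4.02 and 4.10 in the wild type libraries of the prdm3 set, and 3.17 and 4.09 in prdm16 mutants with 3.12 and 3.73 in their wild type. The region chr5:66789703-66790435 had 3.98 and 3.78, with 3.35 and 3.77 in prdm16 mutants and 3.08 and 3.40 in their wild type. The region chr24:2745793-2746765 had 3.98 and 3.65, with 2.98 and 3.35 in prdm16 mutants and 3.196 and 3.30 in their wild type. It lies close to the other region on chromosome 24. These regions had a peak in 6 of the 8 libraries, and the prdm3 mutants alone lacked one. Prdm3 mutant peaks lay close to some of them, 433 and 411 bp from chr5:66789703-66790435 and 577 and 441 bp from chr24:2745793-2746765. For chr24:2750641-2751227 the distances were 1879 and 1572 bp. They were 10651 and 10654 bp for the region on chromosome 9, and 70039 and 70031 bp for chr5:130364-130991.

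Lost regions were found on each of the 25 chromosomes and on unplaced scaffolds. The share of wild type regions lost per chromosome had a median of 9.42%. It was highest on chromosome 4 (80 of 436, 18.3%, 95% exact interval 14.8% to 22.3%), chromosome 25 (41 of 265, 15.5%, 11.3% to 20.4%) and chromosome 24 (28 of 213, 13.1%, 8.92% to 18.4%). It was lowest on chromosome 10 (12 of 225, 5.33%, 2.79% to 9.13%), chromosome 3 (22 of 364, 6.04%, 3.83% to 9.01%) and chromosome 18 (12 of 191, 6.28%, 3.29% to 10.7%). Scaffolds outside the chromosomes held 27 lost of 215 wild type regions (12.6%). In the first Mb of the chromosomes, 13 of 258 wild type regions were lost (5.04%). Without chromosome 4 the share lost was 9.75%. These intervals treat regions as independent, although neighbours are not. On chromosome 25, 12 and 11 of the 41 lost regions lay in the short runs described below. Strength also differed between chromosomes. The median lower rank of wild type regions was 51.5, 44.7 and 58.8 on chromosomes 4, 25 and 24. On chromosomes 10, 3 and 18 it was 55.5, 57.1 and 60.7.

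**Figure D4:**
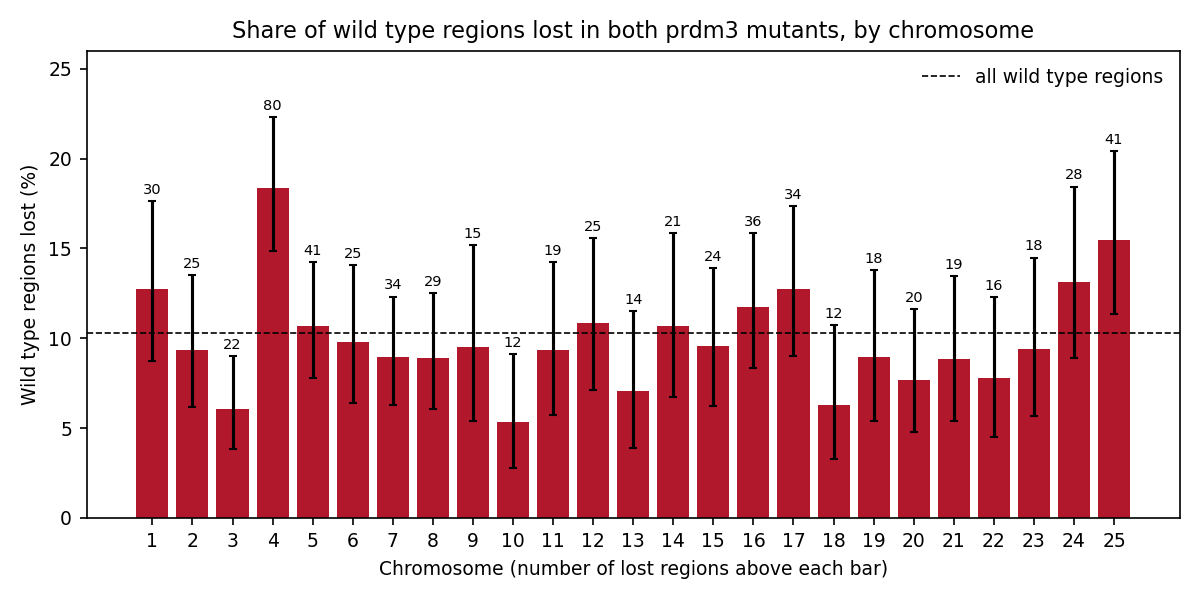
Share of regions with a peak in both wild type libraries that were lost in both prdm3 mutants (percent, vertical axis) for each chromosome, with 95% exact binomial intervals and the number of lost regions above each bar. The dashed line is the share over all wild type regions (10.3%). Chromosome 4 stands highest at 18.3% and chromosome 10 lowest at 5.33%.

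On chromosome 4 nearly all lost regions lay beyond 30 Mb. The long arm of zebrafish chromosome 4 is known as a repeat-rich, largely heterochromatic stretch. Beyond 30 Mb, 74 of 298 wild type regions were lost (24.8%, 95% exact interval 20.03% to 30.1%), against 6 of 138 below 30 Mb (4.35%, 1.61% to 9.22%). The boundary was set after the values by 10 Mb had been seen. By 10 Mb, the share was 36.0% between 30 and 40 Mb, 29.1% between 40 and 50 Mb, 25.5% between 50 and 60 Mb, 19.2% between 60 and 70 Mb and 8.57% beyond 70 Mb. Among weak wild type regions (rank up to 20), 54 of 78 beyond 30 Mb were lost (69.2%), against 480 of 1059 on the other chromosomes and scaffolds (45.3%). Of the 74, 45.9% and 32.4% had a peak in prdm16 mutant replicates 1 and 2, and 4.05% and 35.1% in wild type replicates 1 and 2. The order of the prdm16-set libraries was close to that over all lost regions, with mutant replicate 1 in place of wild type replicate 2 as the highest. Reads from repeats can be placed in more than 1 position, and how they were handled is not given in the sources used here.

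A part of the lost regions lay in runs. Joined across gaps of up to 100 kb, 415 of the 685 (60.6%) stood alone and 270 (39.4%) had a lost neighbour. Kept regions were not joined in the same way, so whether lost regions lie in runs more than other open regions was not tested. There were 6 runs of 8 or more, a size chosen after the values were seen, with 57 lost regions in all. The largest, chr25:25220063-25307028, held 12 lost among 20 wild type regions within 87.0 kb. All 12 had a peak in prdm16 mutant replicate 1 and 5 in mutant replicate 2, with 3 in wild type replicate 1 and 10 in wild type replicate 2. Another on the same chromosome, chr25:26265622-26391477, held 11 lost of 31. Of these 6 and 6 were present in the prdm16 mutants, and 0 and 6 in the wild type libraries of that set. The run chr24:12374004-12565095 held 10 lost of 52, with 9 and 7 in the prdm16 mutants and 1 and 6 in their wild type. The run chr5:53317452-53445836 held 8 lost of 34, with 2 and 6 in the prdm16 mutants and 0 and 4 in their wild type.

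Not every run recurred. In chr1:14552713-14834666, all 8 wild type regions were lost, and none of the 8 had a peak in any library of the prdm16 set. These 8 were very weak, with a median lower rank of 1.83, and the 282 kb held 1 region with a prdm3 mutant peak. The scaffold KN149691.1 carried 8 lost of 10 wild type regions within 24.7 kb. There, all 8 had a peak in prdm16 mutant replicate 1 and 0 in mutant replicate 2, with 3 in wild type replicate 1 and 0 in wild type replicate 2. On this scaffold the 2 prdm16 mutant libraries differed from each other at all 8. Outside the 6 runs, the 628 other lost regions had a peak in 26.8% and 22.9% in the prdm16 mutants and in 6.05% and 29.3% in wild type, close to the shares over all lost regions.

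Which regions count as lost depended on the libraries and on how many peaks each contributed. Without wild type replicate 1 of the prdm3 set, 1732 regions were lost, and without wild type replicate 2, 1472. Leaving out a mutant library gave 801 and 828. With the 8187 strongest peaks taken from every library of the set, 507 regions were lost, but only 51 of these overlapped one of the 685, since most of the 685 are not among the strongest peaks of wild type replicate 1. At those 507 regions, with 6590 strongest peaks from each prdm16-set library, prdm16 mutant replicates 1 and 2 held a peak in 49.3% and 77.1%, and wild type replicates 1 and 2 in 6.31% and 80.3%. Wild type replicate 1 of the prdm16 set was again the low library, in regions that are for the most part different ones. It was also the library cut hardest, from 14074 peaks, followed by mutant replicate 1 from 10682. Mutant replicate 2 and wild type replicate 2 had 6590 and 6777 peaks and were cut little or not at all. The prdm3 mutants were likewise cut, from 18266 and 15115 peaks. The low share under this cut is therefore not a separate repeat of the result over all lost regions.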

How the data were processed

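ATAC-seq peaks were deposited per library, and the build is danRer11, per the submitters' processing notes, which also list Genrich, bedtools 2.30.0, Bowtie2 2.4.4 and cutadapt with no role or order. Each deposited peak has a −log10 p, a signal that gives the area under it, a summit offset and a score, all from the authors' peak caller within 1 library. Replicates were not pooled, and all deposited peaks had a −log10 p of 2.57 or more. The score was not used. Read depth is unknown.

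Groups follow the sample titles. Peaks of a set were merged at 1 bp of overlap, and a region was present in a library if a peak overlapped it by 1 bp or more (Python 3.11.15, pandas 2.3.3, SciPy 1.17.1). Merging was tested on simulated peaks. Percentile ranks of the −log10 p were taken per library. Shares have 95% exact Clopper-Pearson intervals. The only test is a two-sided exact permutation test over the prdm16-set libraries. Regions named in the text are the 8 strongest, the 3 widest, up to 5 in both prdm16-set wild types and no mutant, the 5 strongest in all 4 libraries, and the 3 chromosomes at each end. Runs and the chromosome 4 boundary were chosen after their values were seen. Members and rules were chosen with earlier results of these data known. Nearest genes and motifs were planned but not analysed here, since no genome or gene positions of the build were used. Columns of per-sample values in the RNA tables were not used.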

Additional observations from a re-analysis of the deposited data

How the results depend on the processing

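Of the results given for all lost regions, direction changed once: the prdm16 mutant minus wild type difference in presence was 8.61 percentage points and became -3.43 without wild type replicate 1 of the prdm16 set. Merging across gaps of up to 100 bp, unmerged peaks with an overlap of at least 50%, dropping peaks under 200 bp and leaving out scaffolds moved no count by over 1.5 times and no presence share beyond its interval. With a −log10 p of 3 or more in every library, presence was 38.0% and 33.5% in prdm16 mutants and 8.73% and 38.3% in wild type, and 1 region was lost in both sets. With that limit on wild type libraries only, 441 regions were lost, presence was 41.5% and 34.2% in mutants and 36.7% in wild type replicate 2, and 1 was lost in both sets. With equal numbers of strongest peaks, presence was 49.3% and 77.1% in mutants and 80.3% in wild type replicate 2, and 0 were lost in both sets. Requiring a peak to cover at least 50% of the region, an alternative added after seeing the data, gave 20.9% in mutant replicate 2. Leaving out 1 library of the prdm3 set gave 801 to 1732 lost regions, a rise that is built in because the rule then has fewer conditions. Presence then ran from 18.9% to 38.04% and from 14.9% to 32.9% in prdm16 mutants, and from 4.21% to 14.1% and from 17.7% to 38.6% in wild type. Leaving out 1 library of either set gave differences from -3.43 to 20.7 percentage points and 2 to 43 regions lost in both sets. That count also tends to rise with fewer conditions. The share of wild type regions lost, 10.3% as reported, was 7.60% with a −log10 p of 3 or more in every library. With that limit on wild type libraries only it was 6.97%. Without 1 prdm3-set library it ran from 11.2% to 21.9%. The median width of lost regions, 925 bp as reported, was 767 and 754 bp under these limits. Without 1 prdm3-set library it ran from 615 to 885 bp. Kept widths under these settings are not given. The cause of these changes was not tested. Pairing by replicate number (replicate block) left the difference at 8.61 with p = 1 by an exact test that cannot go below 0.5. Same-numbered libraries deviated together (r = 0.147 in the prdm3 set and 0.393 in the prdm16 set, across regions, which are not independent), but with 2 pairs the numbers are not taken as a pairing. Read depth, which is unknown, limits how far a missing peak can be read as closed chromatin. The planned nearest-gene and motif results were not run.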
